A study of Mus musculus with 13 samples.

Results

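The 9 genes described here are the tissue inhibitors of metalloproteinases Timp1, Timp2, Timp3 and Timp4 and 5 matrix metalloproteinases, Mmp2, Mmp3, Mmp9, Mmp11 and Mmp14. They were chosen by name, each through the probe annotated with that single symbol. Each had 1 such probe among 35557, and all 9 passed the filter on low values, among 16322 genes tested. The choice was made with earlier results of these data known, in which Timp4 had been called for a 24 h wave over the 13 pools. Their levels and 24 h waves are therefore a description and carry no test here. Tested instead were the change across the 48 h, the difference between the days, a 12 h wave, and whether inhibitors and proteinases moved together across pools.

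Whole back skin came from male C57Bl6 mice at postnatal day 30, with hair follicles labelled as anagen, the phase in which hair grows. The mice lived in 12 h of light and 12 h of dark with standard chow at will, and no mutation, irradiation or other treatment is given in the labels. RNA of 3 mice was pooled in equal amounts per time point, so 39 mice gave 13 pools on 13 arrays, from zeitgeber time 2 (ZT2, 2 h after lights on) to ZT50 at steps of 4 h. Of the 6 times of day, 2 h is covered by 3 pools and each of the others by 1 pool per day. Each pool is its own set of mice, so differences between individual mice are hidden.

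Matrix metalloproteinases are secreted or membrane-bound enzymes that use zinc to cut collagens, laminins and other proteins of the extracellular matrix, and they are made as inactive precursors. The inhibitors bind the active site of the mature enzymes. TIMP2 also has a part in activation, since it links the precursor of MMP2 to MMP14 on the cell surface. In skin these proteins are known for wound repair and for the remodelling of the dermis around growing hair follicles.

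Array medians lay between 440.0 and 483.2 intensity units. Keratinocyte, hair matrix and fibroblast markers were bright in every pool, with Krt14 at no less than 9079, Hoxc13 at no less than 4461 and Col1a1 at no less than 13131. Of 8 neutrophil markers, Ly6g, Mpo, Ngp and Retnlg were below the filter or not named here. ZT46 stood apart in hepatocyte markers: the summed intensity of 9 of them was 33470 there and at most 10060 in the other 12 pools. Muscle content varied more widely over the pools, as 12 skeletal muscle markers summed to 36548 in ZT2, their lowest, and 74662 in ZT42, their highest. In whole skin, fewer cells of a type and less RNA per cell cannot be told apart.

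Timp4, an inhibitor best known from heart, muscle and fat, was higher in the dark than in the light. Its intensity was 566.5 at the lowest, 684.9 at the median and 732.2 at the highest of the 6 dark pools, against 479.2, 498.4 and 563.8 in the 7 light pools. The groups did not overlap, but their nearest pools, ZT38 at 566.5 and ZT2 at 563.8, stood close. Dark pools all above light pools were found for 18 of the 16322 genes (0.11%).

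By time of day, Timp4 was lowest at 6 h, with 491.4 in ZT6 and 479.2 in ZT30. At 2 h it was 563.8 in ZT2, 491.7 in ZT26 and 498.4 in ZT50, and at 10 h it was 548.7 in ZT10 and 555.1 in ZT34. The dark hours held the highest values, with 702.0 in ZT14 and 566.5 in ZT38 at 14 h. Levels were 707.1 in ZT18 and 646.7 in ZT42 at 18 h, and 732.2 in ZT22 and 667.9 in ZT46 at 22 h. In the order of means (6, 2, 10, 14, 18 and 22 h), the pools of 10 h lay within the range of 2 h, and those of 14, 18 and 22 h overlapped. Neighbours without overlap were 6 and 2 h, whose nearest pools were at 491.4 (ZT6) and 491.7 (ZT26), and 10 and 14 h.

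The fitted 24 h wave of Timp4 reached its crest at 18.3 ± 0.5 h, in the middle of the dark, with an amplitude of 0.29 ± 0.04 log2 (SE, 13 pools) or 1.49-fold between trough and crest. Fitted to each day alone, the amplitude was 0.22 log2 on the second day (crest at 18.3 h) and 0.29 log2 on the first (18.4 h). Timp4 was the 1 member of 9 called in the wave fit over all genes, where 23 of 16322 genes were called (0.141%). The choice of genes rested on this call, so nothing is read from it. It held without ZT34, ZT38 or ZT46 and was lost without any 1 of the other 10 pools, while the amplitude stayed between 0.26 and 0.31.

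Since TIMP4 is known from muscle and fat, their markers were set beside it, a comparison chosen after the values were seen. Across pools the r of Timp4 was -0.47 with the mean of 12 muscle markers and 0.16 with that of 9 adipocyte markers, with adjusted p = 0.524 and 0.850 (permutation test, 99 comparisons). With both means as covariates the amplitude was 0.32, but 0 members were called in the wave fit, and 11 of all genes. The mast cell markers came nearest, with r = 0.68 (permutation p = 0.00942, adjusted p = 0.119), rho = 0.58 and r = 0.80 without the 2 pools of Timp4 farthest from its median. Their summed intensity over 5 of 6 markers was 6602 to 8267 in the dark and 5990 to 7383 in the light. The part of muscle, fat or mast cells in the Timp4 pattern was not tested.

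The 250 bases before the start of Timp4 are shown because Timp4 has the widest fitted wave of the 9, and clock proteins are known to act through short promoter motifs. The window is chr6:115252206-115252455 on the minus strand (RefSeq, GRCm38.p6), read 5′ to 3′, and capitals would mark a match to any of 8 motifs searched on both strands.
Timp4: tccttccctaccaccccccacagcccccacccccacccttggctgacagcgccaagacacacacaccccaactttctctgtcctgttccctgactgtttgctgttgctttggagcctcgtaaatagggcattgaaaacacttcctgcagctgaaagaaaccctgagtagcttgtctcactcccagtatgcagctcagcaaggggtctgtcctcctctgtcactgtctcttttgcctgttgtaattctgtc
No motif matched. The motifs were the E-box CACGTG (present in 6.02% of 32851 such windows), the variant CACGTT (3.85%), the D-box TTANGTAA (2.06%), AGGTCA, the core of REV-ERB and ROR sites (14.0%), the AP-1 site TGANTCA (6.75%), the GC box GGGCGG (32.7%), TATAAA (12.4%) and CCAAT (33.8%). The table held 7 of the 9 members. None of the 7 windows held either E-box form, the D-box or the REV-ERB and ROR core, which says only that these letters are not in them.

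Genes whose pattern was most like that of Timp4 over the 13 pools were Fam110c (r = 0.86), Pnpla3 (0.84), Tspan31 (0.84), Fndc9 (0.84), Pmaip1 (0.83) and Fasn (0.82), out of 16321. Their fitted peaks lay between 17.1 and 18.0 h. By rank correlation 4 of these 6 were again among the top 6. These r describe 13 shared pools and carry no test.

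Timp1, an inhibitor that cytokines and wounding are known to induce, varied more than Timp2 and Timp3 and tended the other way from Timp4. Its intensity was 483.4 at the lowest, 514.9 at the median and 568.2 at the highest of the dark pools, against 538.5, 639.2 and 804.2 in the light. The groups overlapped. The highest pools were ZT30 at 804.2, ZT26 at 787.0 and ZT10 at 758.3, and all 3 are light pools. The fitted crest was at 6.6 ± 1.1 h and the amplitude 0.25 ± 0.08 log2 (SE). With muscle and adipocyte means as covariates it was 0.15.

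Timp2 and Timp3 varied less. Timp2, the inhibitor with the part in MMP2 activation, ranged from 5163 in ZT2 to 6042 in ZT26, a coefficient of variation of 4.85%. Timp3, which is held in the matrix and also inhibits ADAM enzymes, ranged from 6268 in ZT30 to 7234 in ZT34, or 5.12%. Their fitted amplitudes were 0.02 ± 0.04 and 0.04 ± 0.03 (log2, SE), too small for a peak hour to be meaningful. Timp1 had a coefficient of variation of 18.8% and Timp4 one of 15.5%.

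Among the proteinases, Mmp3 and Mmp14 had the larger waves. Mmp3, stromelysin-1, which cuts many matrix proteins and activates other proteinases, ranged from 495.6 in ZT18 to 886.1 in ZT26, with a fitted crest at 5.0 ± 1.9 h and an amplitude of 0.16 ± 0.08 log2. Mmp14, the membrane-bound activator of MMP2, ranged from 2515 in ZT18 to 3658 in ZT26, with a crest at 4.7 ± 1.5 h and 0.13 ± 0.05 log2. Both were lowest in the same dark pool and highest in the same light pool. Mmp3 had 495.6 at the lowest, 596.9 at the median and 714.2 at the highest of the 6 dark pools, against 543.8, 619.5 and 886.1 of the 7 light pools. Mmp14 had 2515, 2919 and 3358 in the dark, against 2820, 3208 and 3658 in the light. Dark and light overlapped in both genes.

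Mmp2 and Mmp9, the gelatinases, cut type IV collagen and denatured collagen. Mmp2 ranged from 4176 in ZT2 to 5758 in ZT26, with an amplitude of 0.05 ± 0.06 log2 (SE), or 0.03 without ZT2 and 0.08 without ZT26. Mmp9 ranged from 228.4 in ZT18 to 305.8 in ZT26, with 0.08 ± 0.04 log2. Its median was 233.1 over the dark pools and 268.1 over the light pools, and the groups overlapped. The Mmp9 probe was dim, with 33.8% of all probes below its mean. Mmp11, stromelysin-3, which is activated inside the cell, ranged from 562.1 in ZT46 to 770.0 in ZT14 (amplitude 0.06 ± 0.04 log2). That amplitude was 0.04 ± 0.03 log2 without ZT46 and 0.10 log2 without ZT10. Its lowest pool is the one rich in hepatocyte transcripts, and the r of Mmp11 with the hepatocyte mean was -0.73 (permutation adjusted p = 0.193), or -0.17 without the 2 pools of Mmp11 farthest from its median. Their part in that value was not tested. ZT26 held the highest value of 4 of the 5 proteinases and of Timp2. The share of all genes highest in ZT26 was not counted, so nothing is read from this. The summed fibroblast and endothelium markers were also highest in ZT26, and the summed adipocyte and basal keratinocyte markers were lowest there.

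**Figure D1:**
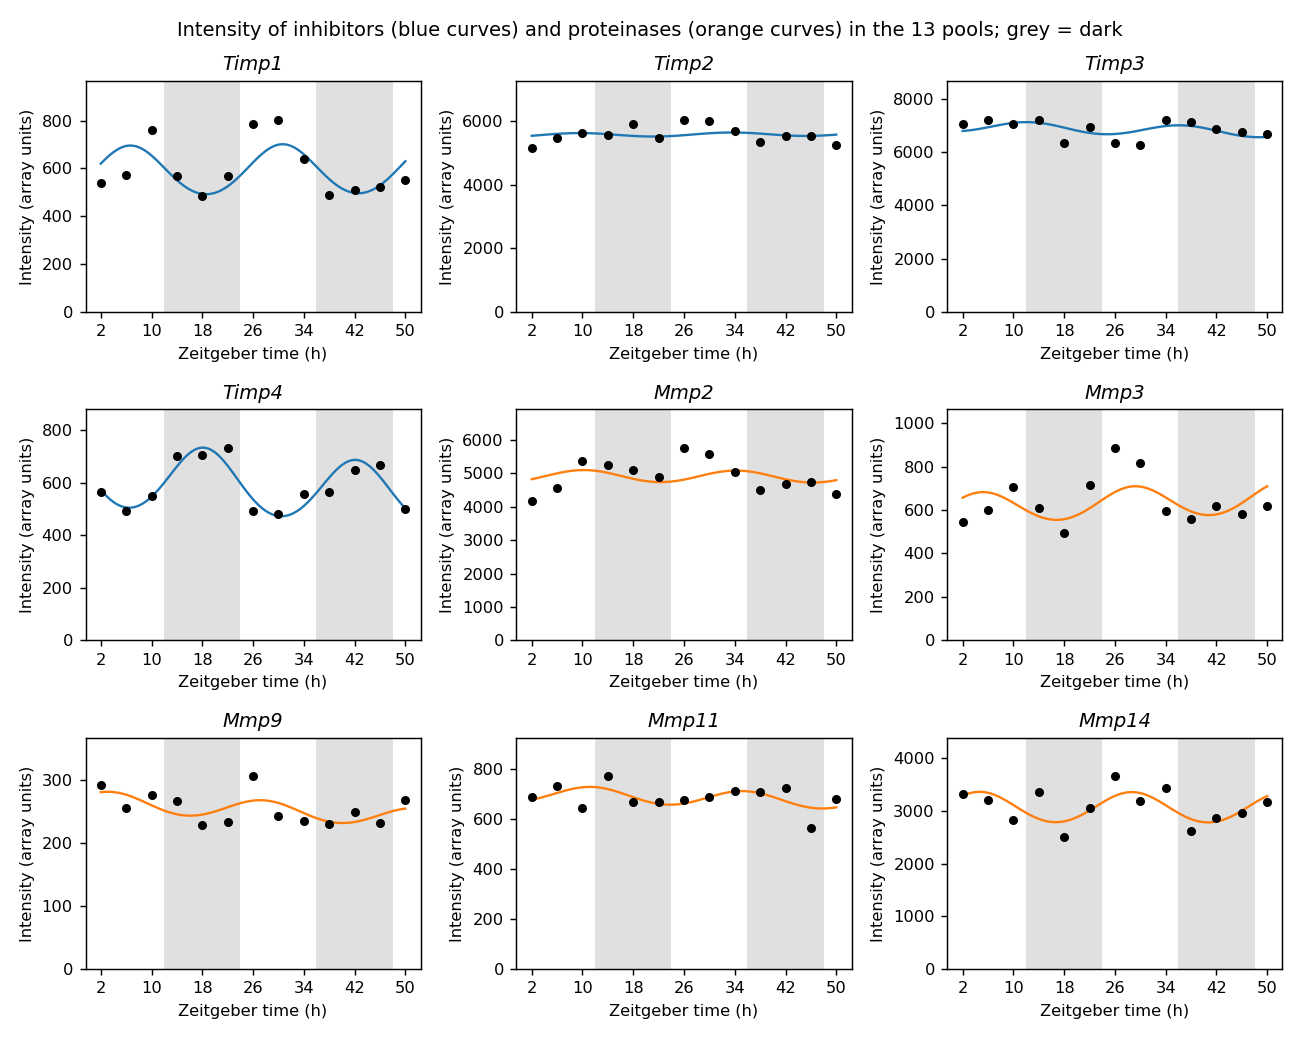
Intensity (array units) against zeitgeber time (h) for the 9 genes, 1 point per pool of 3 mice, with the fitted 24 h wave and linear time as a curve, blue for inhibitors and orange for proteinases, and the dark in grey. Timp4 stands between 566.5 and 732.2 in the dark and between 479.2 and 563.8 in the light, while Timp2 stays between 5163 and 6042.

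Whether the levels changed across the 48 h was asked first. None of the 9 genes passed in limma (adjusted p between 0.603 and 0.996), 0 had an unadjusted p under 0.05, and 0% of all genes were called, with 1437 of them at an unadjusted p under 0.05. Timp4 had the steepest slope, -0.09 ± 0.05 log2 per 24 h (SE, 13 pools, 95% interval -0.19 to 0.01). The other 8 had slopes between -0.07 and 0.05.

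The second day was then set against the first at matched hours, 6 pools each. Timp4 had 479.2 at the lowest, 560.8 at the median and 667.9 at the highest on the second day, against 491.4, 632.9 and 732.2 on the first. It was lower on the second day at 5 of 6 hours, by -0.13 ± 0.06 log2 (SE, 95% interval -0.25 to -0.004), and did not pass (limma, unadjusted p = 0.0447, adjusted p = 0.976). The other 8 members had differences between -0.05 and 0.13 and adjusted p of 0.976 or more. No gene was called (0%), with 771 at an unadjusted p under 0.05. The 95% interval for Timp2 ran from -0.09 to 0.17 and that for Timp1 from -0.17 to 0.34, so shifts inside these ranges cannot be told from none.

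A wave of 12 h was not called in any member. Amplitudes lay between 0.03 and 0.09 log2, with unadjusted p between 0.0957 and 0.939 and an adjusted p of 0.99997 for each (limma). Over all genes 0% were called and 290 had an unadjusted p under 0.05.

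The 24 h wave of the second day differed from that of the first in 1 of the 9, Mmp2 (limma interaction, adjusted p = 0.0484). Its intensity on the second day was 5758, 5563, 5047, 4499, 4669 and 4739 from 2 to 22 h, and on the first day 4176, 4545, 5357, 5237, 5106 and 4891. Mmp2 was thus highest early in the light on the second day and around the change from light to dark on the first. The fitted crest was at 4.3 h on the second day (amplitude 0.18 log2) and at 14.3 h on the first (0.16 log2). Over all genes 478 were called (2.93%), and 4349 had an unadjusted p under 0.05. The other 8 members had adjusted p between 0.128 and 0.820. The call was lost under quantile normalization (adjusted p = 0.0941), with arrays centred on their median (0.0697), with no filter (0.0626), with a filter at the 50th percentile (0.0693) or with all probes (0.0506). With a pool left out, it held without ZT42 (adjusted p = 0.0333) and was lost without each of the other 11 pools used.

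Of 67 genes of the same pathway tested from 6 lists, 4 were called in that test, beside 2.93% of all genes, and none in the others. Mmp19, a proteinase of basement membranes, had adjusted p = 0.0439, with a crest at 4.2 h on the second day (amplitude 0.19 log2) and at 16.2 h on the first (0.32 log2). The matrix substrates Col3a1 and Eln had adjusted p = 0.0441 each and Col1a2 0.0461. Their fitted peaks lay at 3.2, 3.7 and 3.8 h on the second day and at 16.6, 16.1 and 15.9 h on the first. These encode fibrillar collagens and elastin. Over all genes, 531 passed without ZT6, 646 without ZT38 and 1582 without ZT42. Without ZT46 it was 1 gene, and without any 1 of the other 8 pools used it was 0. Fibroblast markers had 2 of 8 called, beside the same 2.93%, and these 2 are the Col1a2 and Col3a1 already named. The 8 fibroblast markers summed to 55559 to 67339 on the second day and 54304 to 65549 on the first. Macrophage and dendritic cell markers had 2 of 7 called and summed to 8392 to 11089 on the second day and 8198 to 9950 on the first. Of 4 neutrophil markers tested, 1 was called. The part of these cells was not tested.

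For the 24 h wave, 0 of the 67 genes were called in limma (background 0.141%), and the median amplitude was 0.06 log2 over them as over all genes tested. Of 18 ADAMTS genes 16 were tested, with a median amplitude of 0.11. Adamts4, an aggrecanase, had the widest fitted wave, 0.51 ± 0.11 log2 with its crest at 22.4 h, and ranged from 211.8 in ZT10 to 587.9 in ZT26. Adamts6 had 0.16 and Adamts18 0.14, while Adamts1 and Adamts12 had 0.10 and 0.02. Of 18 other matrix metalloproteinases 12 were tested, with a median of 0.10 and at most 0.14, that of the macrophage elastase Mmp12. Mmp17 had 0.14, Mmp16 0.13, Mmp24 0.11 and Mmp23 0.08. The collagenases Mmp1a, Mmp1b, Mmp8 and Mmp13 were below the filter.

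Of 9 ADAM proteinases 8 were tested, with a median amplitude of 0.05. Adam33 had 0.16, Adam8 0.09 and the sheddase Adam17 0.06, while Adam9 and Adam15 had 0.03 each. Of 6 other inhibitors 4 were tested, with a median of 0.13. Reck, a membrane-anchored inhibitor, had 0.16 ± 0.04 with its crest at 12.6 h, and the protease traps Pzp and A2m had 0.27 ± 0.27 and 0.10. Tfpi2 had 0.04. All 11 activators and inducers were tested, with a median of 0.05. Plg, the precursor of plasmin, had 0.20 ± 0.16, Plaur 0.08 and the cathepsin Ctsl 0.06, and Ctsb and Bsg had 0.01 and 0.03. Pzp and Plg, which liver makes, were highest in ZT46, at 1264 and 748.6. Without ZT46 their amplitudes were 0.19 ± 0.11 and 0.15 ± 0.06. Of 17 matrix substrates 16 were tested, with a median of 0.04. Col7a1, the anchoring fibril collagen, had 0.13, Lum 0.12, Col4a5 0.10, Dcn 0.05 and Col1a1 0.02.

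**Figure D2:**
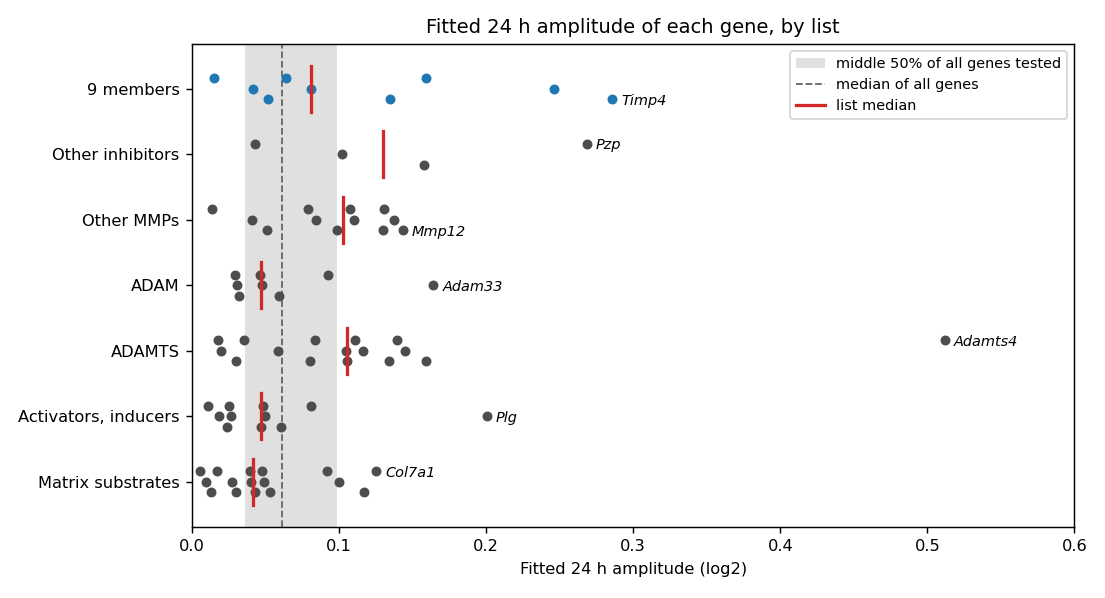
Fitted 24 h amplitude (log2) of each tested gene, 1 point per gene, in the 9 members and 6 lists, with list medians in red and the median and middle 50% of all 16322 genes as dashed line and grey band. Timp4 at 0.29 and Adamts4 at 0.51 lie outside the band, and the list median of the matrix substrates is 0.04.

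Inhibitors and proteinases were next compared across pools, in 20 pairs. Mmp2 followed Timp2, with r = 0.91 (permutation p = 1e-05, the smallest 100000 permutations can give, adjusted p = 2e-04) and rho = 0.94 (adjusted p = 4e-04). Both were lowest in ZT2, at 4176 and 5163, and highest in ZT26, at 5758 and 6042. Of 16321 genes, Mmp2 had rank 4 in likeness to Timp2, after Mrc1, Ubr3 and Itgb2. Without ZT26 and ZT30, the pools of Timp2 farthest from its median, r was 0.83 (permutation p = 0.00162). Within the 6 pools of the second day it was 0.99, and within the 6 of the first 0.78.

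Mmp3 followed Timp1, with r = 0.86 (permutation p = 3.3e-04, adjusted p = 0.0033) and rho = 0.71 (adjusted p = 0.0798). ZT26 and ZT30 were highest in both, and ZT18 was lowest in both. Without ZT26 and ZT30 r was 0.67 (permutation p = 0.0265), and it was 0.91 within the second day and 0.77 within the first. Timp1 and Mmp2 had r = 0.74 (permutation adjusted p = 0.0257), but rho = 0.62 did not pass (permutation adjusted p = 0.14). Without ZT26 and ZT30 r was 0.50 (permutation p = 0.122). The relation was thus not shown without those 2 pools, though leaving out the farthest pools also narrows the range of Timp1. Within the second day r was 0.98, and within the first 0.39. With 1 pool left out, this pair did not pass without ZT10, ZT26, ZT30, ZT38 or ZT42 (permutation adjusted p between 0.0505 and 0.132). Timp2 with Mmp2 was the 1 pair of 20 that passed by both r and rho. The permutation treats pools as exchangeable, which pools in time order need not be. After removal of linear time and the 24 h wave, r was 0.92 for Timp2 with Mmp2, 0.91 for Timp1 with Mmp3 and 0.92 for Timp1 with Mmp2. Timp3 with Mmp2 passed as well, at -0.71 (permutation adjusted p = 0.029, beside 0.298 before removal). A permutation after such a removal, here or of marker means, does not count the fitted terms, so its p is likely too small.

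The other 17 pairs did not pass, with r between -0.48 and 0.54. Timp2 with Mmp14, the other partners in MMP2 activation, had r = 0.10, which was 0.84 within the second day and -0.82 within the first. Timp3 had r = -0.48 with Mmp2 and -0.41 with Mmp3. Timp4 had r between -0.46 and -0.06 with the 5 proteinases. Mmp11 had r between -0.13 and 0.34 with the 4 inhibitors.

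Within each family the r were taken as a description over the same 13 pools, with no test. Among the inhibitors, Timp1 and Timp2 had r = 0.61, while Timp3 had -0.68 with Timp2 and Timp4 had -0.59 with Timp1. The pools with the lowest Timp3 were ZT30 at 6268, ZT26 at 6338 and ZT18 at 6349, and these are also the 3 highest of Timp2, at 6005, 6042 and 5886. Other pools did not follow this order: ZT34, with the next highest Timp2 at 5674, held the highest Timp3 at 7234. Among the proteinases, Mmp2 and Mmp3 had the highest r at 0.67, followed by Mmp9 and Mmp14 at 0.59 and Mmp3 and Mmp14 at 0.50. Mmp11 had r between -0.03 and 0.25 with the other 4 proteinases.

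**Figure D3:**
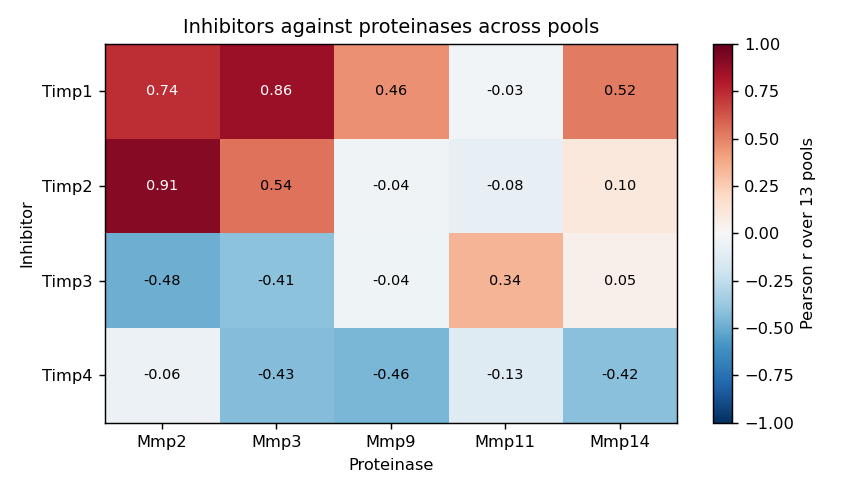
Pearson r over the 13 pools of each inhibitor (rows) with each proteinase (columns), on log2 intensities, from blue at -1 to red at 1. Timp2 with Mmp2 at 0.91 and Timp1 with Mmp3 at 0.86 are the highest of the 20.

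**Figure D4:**
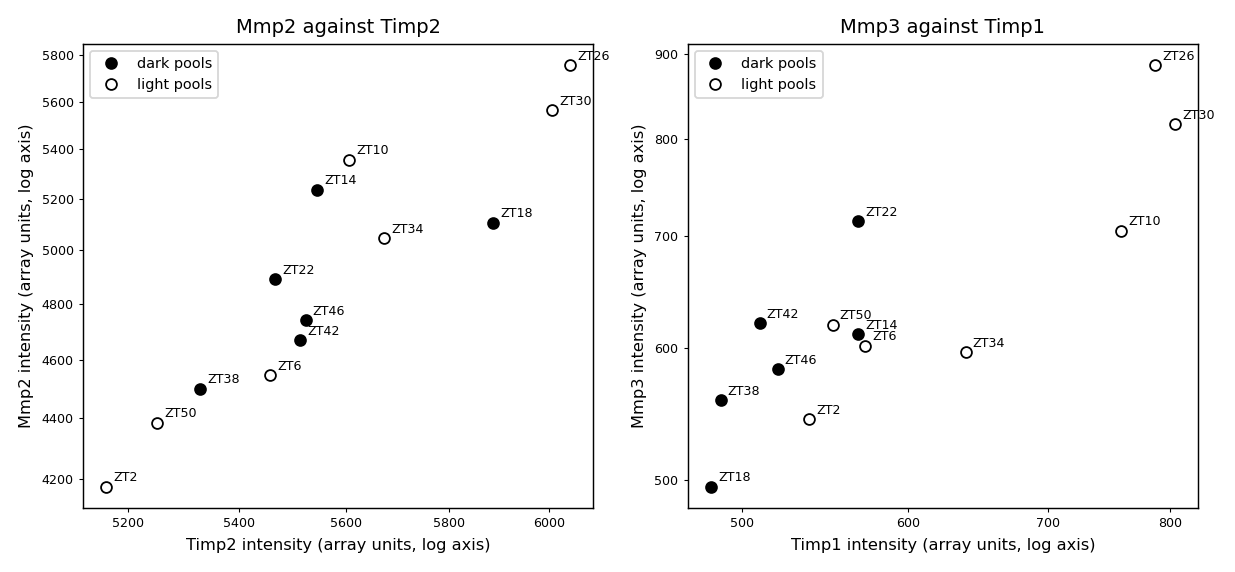
Intensity of Mmp2 against Timp2 and of Mmp3 against Timp1 (array units, log axes), 1 point per pool, filled for dark and open for light. ZT26 and ZT30 lie at the upper right of both panels.

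Timp2 and Mmp2 moved with the markers of fibroblasts and of macrophages and dendritic cells, a comparison chosen after the values were seen. Mmp2 had r = 0.93 with the mean of 8 fibroblast markers and 0.88 with that of 7 macrophage and dendritic cell markers (permutation, adjusted p = 0.00198 and 0.00346 over 99 comparisons of 9 genes with 11 lists). Timp2 had 0.85 and 0.87 (adjusted p = 0.00812 and 0.0047). Timp3 had 0.83 with 9 adipocyte markers (adjusted p = 0.00429), and 0.77 without the 2 pools farthest from its median. These were the 5 of 99 that passed. How many of all genes reach such r with the same means was not counted. With endothelium markers Mmp2 had 0.37 and Timp2 0.45, and with mast cell markers 0.29 and 0.16. None of these passed (permutation adjusted p between 0.545 and 0.85). Timp1 and Mmp3 had 0.69 and 0.70 with the macrophage and dendritic cell mean (adjusted p = 0.119 each), and 0.62 and 0.59 with the fibroblast mean (permutation adjusted p = 0.193 and 0.241). Their r with the skeletal muscle mean was 0.62 and 0.66 (permutation adjusted p = 0.193 and 0.158). With fibroblast and macrophage means removed, no pair passed. Then r was 0.49 for Timp2 with Mmp2 (permutation p = 0.0867, adjusted p = 0.289). For Timp1 with Mmp3 it was 0.73 (permutation p = 0.00396, adjusted p = 0.0792). Since Mmp2 and Timp2 follow these means closely, little of their variation is left after removal. The part of these cells in the pairs was not tested. The summed fibroblast markers ranged from 54304 in ZT2 to 67339 in ZT26 and the summed macrophage and dendritic cell markers from 8198 in ZT2 to 11089 in ZT30.

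**Figure D5:**
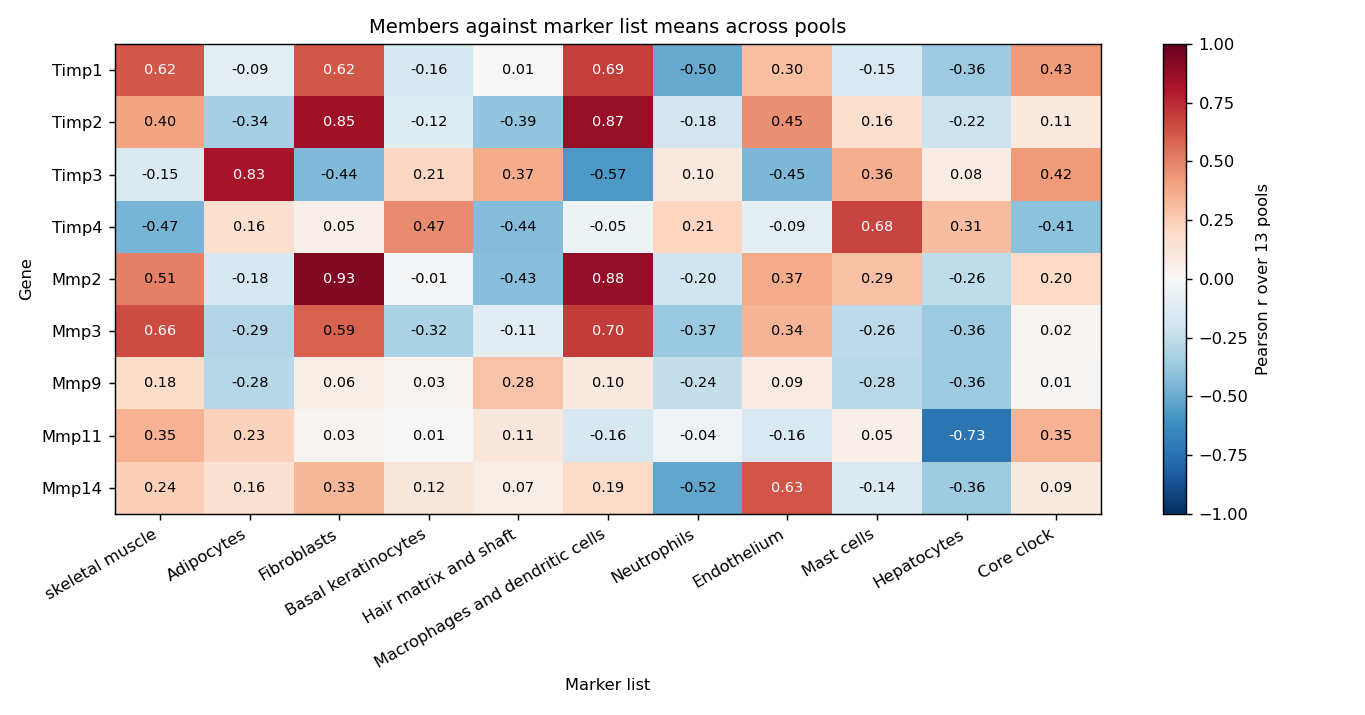
Pearson r over the 13 pools of each of the 9 genes (rows) with the mean log2 level of each of 11 marker lists (columns), from blue at -1 to red at 1. Mmp2 and Timp2 reach 0.93 and 0.85 with fibroblast markers, and Timp3 reaches 0.83 with adipocyte markers.

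Patterns most like each remaining member were those of Tmem106a, Man2b2 and C3ar1 for Timp1 (r from 0.91 to 0.92), Grina, Serinc3 and Rnf126 for Timp3 (0.90 to 0.92) and Ptprj, Dock2 and Mrc2 for Mmp2 (0.92 to 0.94). For Mmp3 they were Lamtor5, Clec10a and Rabac1 (0.87 to 0.89), and Timp1 had rank 4. They were Aldh3b1, Entpd2 and Shc2 for Mmp9 (0.82 to 0.85), Ufsp1, Pde9a and Ppp1r1a for Mmp11 (0.80 to 0.82) and Map1b, Tmem242 and Disp1 for Mmp14 (all 0.91). These are descriptions over shared pools.

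The windows of 250 bases before the starts of Timp1, Mmp3 and Timp2 are shown because these genes moved together with each other or, for Timp2, with Mmp2. They are chrX:20869916-20870165 (plus strand), chr9:7445572-7445821 (plus) and chr11:118355412-118355661 (minus) in GRCm38.p6 from RefSeq, 5′ to 3′, with matches to the 8 motifs in capitals.
Timp1: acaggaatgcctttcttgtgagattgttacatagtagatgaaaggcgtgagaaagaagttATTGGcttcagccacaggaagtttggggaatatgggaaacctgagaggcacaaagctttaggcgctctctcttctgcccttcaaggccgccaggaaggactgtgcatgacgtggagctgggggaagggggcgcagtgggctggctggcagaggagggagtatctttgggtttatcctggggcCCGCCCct
Mmp3: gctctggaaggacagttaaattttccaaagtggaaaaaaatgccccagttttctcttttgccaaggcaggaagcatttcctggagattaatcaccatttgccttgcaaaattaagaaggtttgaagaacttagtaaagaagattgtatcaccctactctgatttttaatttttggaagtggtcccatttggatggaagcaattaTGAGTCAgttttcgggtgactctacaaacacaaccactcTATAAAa
Timp2: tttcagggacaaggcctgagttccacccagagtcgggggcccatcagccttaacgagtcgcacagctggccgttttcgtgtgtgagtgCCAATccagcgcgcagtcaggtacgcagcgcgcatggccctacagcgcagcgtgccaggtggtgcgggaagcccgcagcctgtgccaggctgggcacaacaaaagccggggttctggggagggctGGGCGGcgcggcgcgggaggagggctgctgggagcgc
The capitals in Mmp3 mark TGAGTCA, an AP-1 match 46 to 40 bases before the start, and TATAAA at 7 to 2 bases. Mmp3 was the 1 member of 7 with either. In Timp1 they mark CCAAT on the opposite strand at 190 to 186 bases and the GC box on the opposite strand at 8 to 3 bases. Timp2 had CCAAT at 162 to 158 and the GC box at 37 to 32 bases. The GC content was 54.4% in Timp1, 37.6% in Mmp3 and 68.0% in Timp2, beside a median of 52.4% over all windows.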

How the data were processed

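Values are the probe intensity the authors deposited, on a linear, not a log, scale. The submitters' processing notes name Affymetrix Expression Console (1.1.1) and PLIER (2.0) without saying what each did. Build and scaling between arrays are not given in the sources used here. Intensities were converted to log2(value + 16), which shrinks the folds of dim genes. Among probes annotated with 1 symbol, those whose mean reached the 25th percentile (7.61 log2) were used, and each gene was read from its highest-mean probe.

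Tests over all 16322 genes used limma 3.58.1 (R 4.3.3) with Benjamini-Hochberg adjustment and calls at an adjusted p under 0.05. The wave had cosine and sine terms of 24 h with linear time. Drift was the time term, the days were compared with time of day as block without ZT50, and the 12 h wave stood beside the 24 h one. Pair and marker correlations used two-sided permutation tests (100000). The number of arrays limits the precision, and p-values measure the spread between pools.

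Members and lists were chosen with earlier results of these data known. All members, all called list genes, the 3 widest waves and 2 highest means per list, and the 6 (Timp4) or 3 most similar genes are named. Symbols of 9 of 9 members matched RefSeq (GRCm38.p6). The fits were run on simulated data with independent noise for each gene and pool. Genes of a real pool share its tissue mix, so that run gives no false call rate for these data. Alternatives were 2 scalings, pseudocounts of 1 and 64, 2 filters, all probes, another prior, marker covariates, other time terms and leaving out each pool. Figures used matplotlib 3.10.9.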

Additional observations from a re-analysis of the deposited data

Results flagged for a closer look

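The wave of 5 genes differed between the days by the interaction term, with adjusted p = 0.0484 for Mmp2, 0.0439 for Mmp19, 0.0461 for Col1a2, 0.0441 for Col3a1 and 0.0441 for Eln (limma). With quantile normalization these were between 0.0909 and 0.0950.

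Within a day, 1 pool stood apart from the other 5 in 4 of 18 groups of values, where chance gives about 1 in 20. The share over all genes was not counted and the members share the same pools, so no excess is read from this count. The gap divided by the range was 0.625 for Timp1 on the first day (ZT10 highest), 0.722 for Timp3 on the first day (ZT18 lowest), 0.714 for Mmp9 on the second day (ZT26 highest) and 0.71 for Mmp11 on the second day (ZT46 lowest).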

How the results depend on the processing

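Drift, the day difference and the 12 h wave gave 0 called members and 0 called genes under every alternative run, and the drift and day difference of Timp4 stayed negative. For the 24 h wave, the count of called members was 0 with quantile normalization, median centring, no filter, the muscle and adipocyte covariates, no linear time and cycle number as a factor, and 0 to 1 when a pool was left out (1 without ZT34, ZT38 and ZT46). Called genes numbered 15 with no filter, 11 with the covariates and 13 to 30 without a pool. The amplitude of Timp4 lay between 0.25 and 0.32 over 12 settings. For the wave of the second day against the first, called members numbered 0 with either scaling, no filter, the 50th percentile filter and all probes, and 0 to 1 without a pool. Called genes there numbered 0 with either scaling and no filter, 5 with the 50th percentile filter, 1980 with the covariates and 0 to 1582 without a pool. The cause was not tested. Of the pairs, 0 passed with fibroblast and macrophage means removed, an alternative chosen after seeing the data, and 2 to 5 without a pool (5 without ZT18). Timp1 with Mmp2 did not pass with quantile normalization (r = 0.67, permutation adjusted p = 0.0823) or with muscle and adipocyte means removed (0.63, 0.106). The labels give no replicate numbers that pair pools. The dim Mmp9 is the 1 member that the 50th percentile filter removed.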

Other observations

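Timp1, Timp3 and Timp4 lie inside the synapsin genes Syn1, Syn3 and Syn2 in RefSeq's gene table, used here for neighbours only. Synapsins coat vesicles in nerve endings. Syn2 and Syn1 were dim, with mean intensities of 266.8 and 278.7, beside 255.3 for Mmp9. The fitted 24 h amplitude of Syn2 was 0.19 log2 with a peak at 16.4 h, beside 0.29 and 18.3 h for Timp4, and the r between them over 13 pools was 0.53. Syn1 and Timp1 had r = -0.38, and Syn3 and Timp3 0.36. These genes were chosen after the values of the members were seen, and no test was made.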
